A study of Mus musculus with 12 samples.

Results

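Regulatory T cells of the host mouse (host tTregs) were compared with conventional CD4 T cells of the host (host Tconv) by ATAC-seq, which cuts open chromatin with the Tn5 transposase. The comparison uses 4 of the 12 libraries, 2 for each of 6 groups, and every peak of those 4 lists was kept. Host tTregs were sorted as CD3+CD4+ cells with CD25, CTLA4 and Nrp1, positive for both CD45.1 and CD45.2. Host Tconv were CD3+CD4+CD25- cells positive for CD45.1 and negative for CD45.2. All animals were of the Balb/c strain, and no age is given in the labels used here. The hosts were Aire-HA mice that had received 6.5TCR T cells, which recognise HA, and bone marrow T cells were sorted 14 days after the transfer. The titles call the Tconv host WT, whereas their descriptions read Aire-HCO; the tTreg labels give neither. The labels do not say whether replicates came from separate animals, so a p-value here speaks only of the spread among these libraries, part or all of which may be technical.

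The groups also differed in how the libraries were made. Both tTreg libraries carry the run code DR31 and numbers of 10000 or slightly more in their names, and both Tconv libraries carry BW13 and the number 50000. The protocol speaks of 2000 to 15000 sorted cells, and the labels do not say what the name numbers count. Cell state, run code, that number, CD45 type and any difference in host genotype cannot be told apart in this contrast. The lists hold peak positions with no signal, so the depth is unknown, and a missing peak does not show closed chromatin. In bulk libraries, fewer cells with an open site and less opening per cell also cannot be told apart.

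Thymic Tregs arise in the thymus, depend on the transcription factor Foxp3 and hold back immune responses. Helios (Ikzf2) and neuropilin 1 (Nrp1) are used to mark them, and CD25 (Il2ra) and CTLA-4 are high on their surface. Conventional CD4 T cells at rest keep a programme of naive T cell factors, among them TCF-1 (Tcf7), LEF1, SATB1, BACH2 and FOXP1. CD25, CTLA-4 and Nrp1 were gates of the sort, so peaks at Il2ra, Ctla4 and Nrp1 are a check of the labels and not a finding.

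Peaks of the 4 lists were joined into regions wherever they overlapped by 1 bp or more. A region is called tTreg-only where both tTreg libraries and neither Tconv library had a peak, and Tconv-only in the opposite case. Promoter windows of 5 named genes that held such a region are shown because they put differing regions on known gene starts, and a pair of Foxp1 starts differed in opposite directions. Each window runs from 250 bases before to 50 bases after a listed start, is read on the gene's strand and comes from RefSeq, build GRCm38.p6, whose coordinates equal those of mm10. The reference is another strain than Balb/c, so strain differences are not shown. Capitals mark matches on either strand to AP-1 (TGANTCA), CRE (TGACGT), forkhead (TGTTTAC), Runx (TGTGGTT), TCF/LEF (CTTTGAA), STAT (TTCNNNGAA) and ETS (ACTTCCG).
Izumo1r, chr9:14903718-14904017, minus strand, tTreg-only: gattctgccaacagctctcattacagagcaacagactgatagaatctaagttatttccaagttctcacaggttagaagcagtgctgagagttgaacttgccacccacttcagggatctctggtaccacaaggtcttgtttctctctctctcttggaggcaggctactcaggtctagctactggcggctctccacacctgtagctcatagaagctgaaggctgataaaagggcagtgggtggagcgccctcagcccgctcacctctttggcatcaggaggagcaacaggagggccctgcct
Foxp1, inner start, chr6:99028249-99028548, minus strand, tTreg-only: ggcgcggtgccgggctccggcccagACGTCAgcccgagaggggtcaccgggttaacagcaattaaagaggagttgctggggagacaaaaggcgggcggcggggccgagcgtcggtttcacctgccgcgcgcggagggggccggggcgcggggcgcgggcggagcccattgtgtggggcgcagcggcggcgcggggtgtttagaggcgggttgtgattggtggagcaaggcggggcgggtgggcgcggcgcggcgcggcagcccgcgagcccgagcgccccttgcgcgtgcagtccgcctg
Foxp1, outer start, chr6:99266466-99266765, minus strand, Tconv-only: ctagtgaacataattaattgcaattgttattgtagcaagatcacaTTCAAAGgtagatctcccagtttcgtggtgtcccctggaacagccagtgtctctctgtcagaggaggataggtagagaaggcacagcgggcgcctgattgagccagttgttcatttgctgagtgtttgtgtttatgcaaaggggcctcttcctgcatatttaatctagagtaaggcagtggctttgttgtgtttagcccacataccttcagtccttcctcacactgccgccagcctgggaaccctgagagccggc
Il12rb2, chr6:67376139-67376438, minus strand, Tconv-only: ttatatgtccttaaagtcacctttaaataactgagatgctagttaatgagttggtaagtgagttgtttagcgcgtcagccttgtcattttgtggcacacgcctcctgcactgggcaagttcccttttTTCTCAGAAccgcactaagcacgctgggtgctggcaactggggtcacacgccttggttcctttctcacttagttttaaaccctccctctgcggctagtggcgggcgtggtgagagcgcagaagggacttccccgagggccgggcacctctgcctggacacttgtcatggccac
Cd160, chr3:96814472-96814771, minus strand, Tconv-only: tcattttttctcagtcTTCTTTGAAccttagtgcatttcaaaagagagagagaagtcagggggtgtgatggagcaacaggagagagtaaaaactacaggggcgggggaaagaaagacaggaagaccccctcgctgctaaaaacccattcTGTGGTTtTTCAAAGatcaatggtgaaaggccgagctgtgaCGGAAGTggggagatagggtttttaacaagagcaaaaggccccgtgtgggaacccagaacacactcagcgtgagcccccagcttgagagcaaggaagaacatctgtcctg
Cd3d, chr9:44981536-44981835, plus strand, Tconv-only: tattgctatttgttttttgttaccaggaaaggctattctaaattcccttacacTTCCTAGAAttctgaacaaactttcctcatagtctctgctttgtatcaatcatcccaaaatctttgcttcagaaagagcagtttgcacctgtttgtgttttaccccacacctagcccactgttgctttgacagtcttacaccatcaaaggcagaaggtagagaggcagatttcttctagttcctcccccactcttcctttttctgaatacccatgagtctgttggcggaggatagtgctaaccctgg

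The Izumo1r window, at the gene of the folate receptor family member FR4, held none of the 7 motifs. The inner Foxp1 window held CRE, which 8.49% of all 21263 promoter windows held, and the outer one held TCF/LEF, which 4.54% held. The window of Cd160, an inhibitory receptor gene, held Runx, TCF/LEF, STAT and ETS, and its first capital run is a STAT match that overlaps a TCF/LEF match. Its region measured 374 and 514 bp in Tconv and had no peak in tTregs or host pTregs, but had one in all 4 donor and both iTreg libraries. The Il12rb2 and Cd3d windows held STAT, which 7.69% of all windows held. A match is a stretch of letters and not a shown binding site.

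Tconv-only regions outnumbered tTreg-only regions, by less when the lists were held to 1 length. The tTreg libraries held 28394 and 35829 peaks, against 37050 and 44465 in the Tconv libraries. Peaks covered 16.9 and 23.3 Mb in tTregs, against 23.4 and 32.9 Mb in Tconv. Both tTreg lists were the shorter ones, and with 2 libraries a side the exact two-sided permutation test gave its smallest possible p of 0.333 for both measures. Merging gave 51067 regions, of which 1998 (3.91%) were tTreg-only, 7710 (15.1%) were Tconv-only and 23162 (45.4%) had a peak in all 4 libraries. With the 28394 widest peaks of every list, 3423 of 37276 regions (9.18%) were tTreg-only and 4011 (10.8%) were Tconv-only. The tTreg-only share of the differing regions was 20.6% with all peaks, 46.0% at equal list length and 16.9% with peaks of 300 bp or more. Equal length also sets a different width limit for each list, with narrowest kept peaks of 150 and 249 bp in tTregs, against 270 and 387 bp in Tconv. Leaving out 1 library changes the rule as well, since its group is then judged by the remaining library alone. This rule is looser, so counts can rise for that reason. Without tTreg 1, which had the shortest list, tTreg-only regions numbered 5379, and without Tconv 2 they numbered 3277. Without Tconv 1, Tconv-only regions numbered 14483. Replicates shared 26510 of 35790 tTreg regions (74.1%) and 34944 of 45462 Tconv regions (76.9%).

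The gene with the most tTreg-only regions, tied with Rad51b, was Ikzf2, which encodes Helios. A region was assigned to the protein-coding gene holding its midpoint, or else to the nearest gene end within 50 kb. Among 13984 genes with a region, 887 (6.34%) had more tTreg-only than Tconv-only regions and 3634 (26%) had the opposite. Ikzf2 (chr1:69531207-69687351) had 8 tTreg-only and 1 Tconv-only of 26 regions, and 10 tTreg-only and 1 Tconv-only at equal list length. Peaks assigned to Ikzf2 covered 11488 and 17095 bp in tTregs, against 2506 and 7028 bp in Tconv. The tTreg libraries covered more than the Tconv libraries, without overlap. The widest of the tTreg-only regions lay at chr1:69691955-69692890 and measured 839 and 936 bp in tTregs. Both donor Treg, both in vitro iTreg and both host pTreg libraries had a peak there, and neither donor Tconv library had one. All 8 tTreg-only regions of Ikzf2 had a peak in both host pTreg libraries, 6 had one in both donor Treg libraries, 1 had one in both iTreg libraries and 3 had one in a donor Tconv library.

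**Figure D1:**
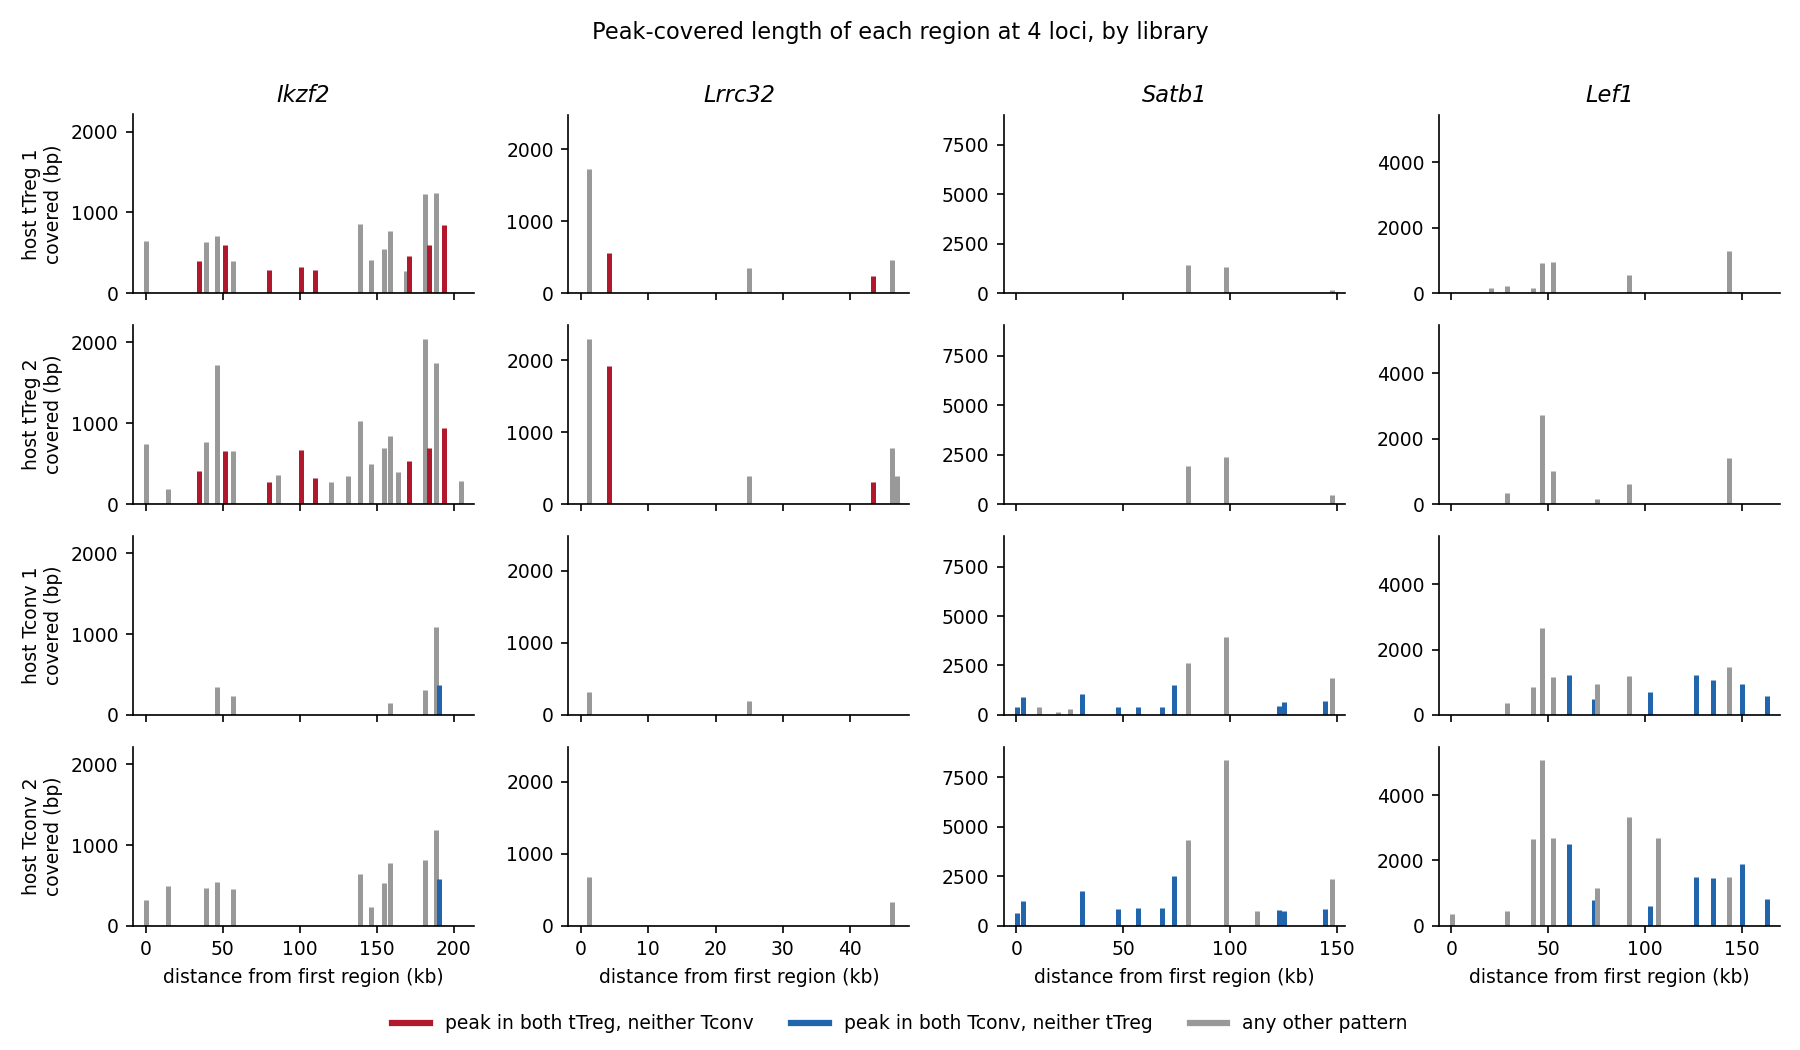
Peak-covered length in bp (vertical axis) of every region assigned to Ikzf2, Lrrc32, Satb1 and Lef1 against its distance in kb from the gene's first region (horizontal axis), with 1 row for each library. Ikzf2 has 8 red tTreg-only regions and 1 blue Tconv-only region, whereas Satb1 has 10 and Lef1 has 7 blue regions and no red one.

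The other genes led by tTreg-only regions have varied roles. Itgb8 encodes integrin beta 8, which releases active TGF-beta. It had 4 tTreg-only and no Tconv-only of 7 regions, all 4 present in both donor Treg and both host pTreg libraries and in no donor Tconv library. Itgb8 peaks covered 3238 and 3661 bp in tTregs, against 471 and 1387 bp in Tconv. Swap70, a guanine nucleotide exchange factor that signals to Rac, had 6 tTreg-only and 0 Tconv-only of 13 regions and covered 4599 and 7147 bp in tTregs, against 1460 and 2919 bp in Tconv. Myo1e, a class I myosin, had 4 tTreg-only and 0 Tconv-only of 9 regions and covered 2915 and 5583 bp in tTregs, against 603 and 1569 bp in Tconv. At these 3 genes each tTreg library covered more than either Tconv library. Their tTreg-only regions, by which they were chosen, add length only in tTregs, so this follows in part from the choice. How many of all genes show this is not given. Ceacam15, of the carcinoembryonic antigen family, covered 1245 and 2826 bp in tTregs and had no peak in Tconv. Atxn1, whose product ataxin 1 binds chromatin, had 7 tTreg-only and 0 Tconv-only of 36 regions, and covered 11785 and 18465 bp in tTregs, against 11167 and 15337 bp in Tconv, so that its totals overlapped. Totals also overlapped at Cdk6, a cell cycle kinase, at Rad51b, a recombination gene, and at Inpp4b, a phosphoinositide phosphatase. Inpp4b had 7 tTreg-only and 2 Tconv-only of 53 regions, but with peaks of 300 bp or more its net was -2. Lamc1, Niban1 and Thsd7b, with 6, 5 and 4 tTreg-only and no Tconv-only regions, lie within 20 Mb of Ptprc, the CD45 gene by which the 2 sorts differ.

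**Figure D2:**
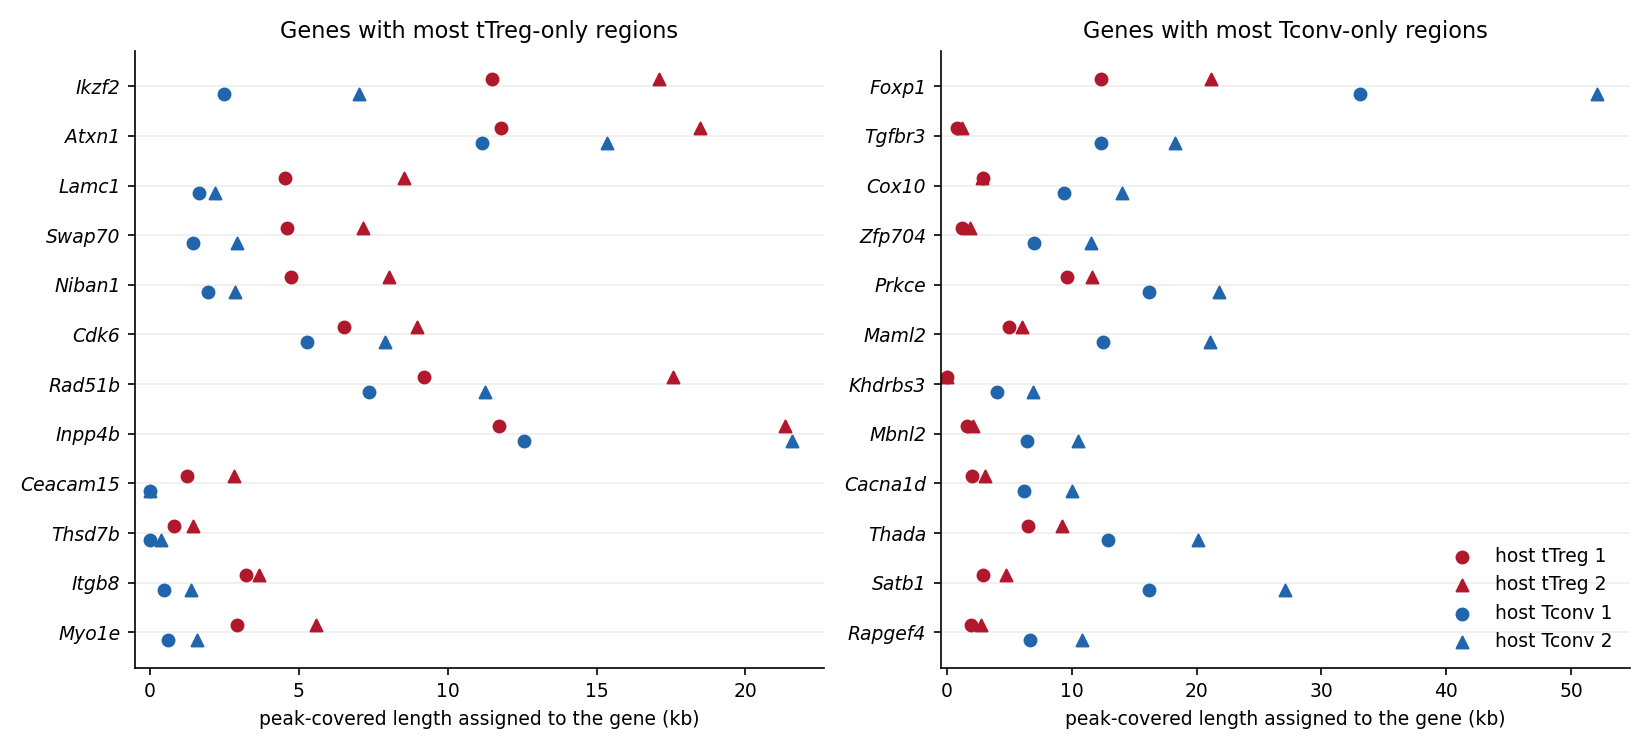
Peak-covered length in kb (horizontal axis) at the 12 genes that had the highest net of tTreg-only regions (left) and of Tconv-only regions (right), drawn as 1 point for each of 2 host tTreg libraries (red) and 2 host Tconv libraries (blue). Totals of Atxn1, Cdk6, Rad51b and Inpp4b overlap between groups, while Tgfbr3 spans 787 and 1189 bp in tTregs, against 12311 and 18279 bp in Tconv.

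Treg core genes had more tTreg-only than Tconv-only regions. Over the 20 genes of this list, 32 of 197 regions (16.2%) were tTreg-only and 14 (7.11%) were Tconv-only, beside 3.72% tTreg-only and 14.7% Tconv-only of the 46734 regions assigned to any gene. At equal list length the list had 50 tTreg-only and 10 Tconv-only of 174, beside 8.65% tTreg-only and 10.5% Tconv-only of all assigned regions. By gene, 10 leaned to tTregs, 4 leaned to Tconv and 6 were even. The net number of regions on this list was 18. By the looser rule with 1 library left out, it was 42 without tTreg 1, 32 without Tconv 2 and 12 without Tconv 1.

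Foxp3 itself gave regions in both directions. A region of the gene body at chrX:7582813-7584925 measured 1102 and 2113 bp in tTregs and had no peak in Tconv. All 6 other Treg libraries and both donor Tconv libraries had a peak there, so a peak at this site also occurs in cells sorted as CD25-. Further into the gene, chrX:7586435-7586869 measured 357 and 435 bp in Tconv and chrX:7587485-7587871 measured 247 and 387 bp in Tconv, and neither had a peak in tTregs. Both were present in both donor Tconv libraries, and among the 6 other Treg libraries 1 had a peak at the first and none at the second. A tTreg-only region at chrX:7594430-7596108 spans the end of Foxp3 and was assigned to the overlapping gene Ccdc22. It measured 714 and 1679 bp in tTregs. Both donor Treg, both host pTreg and both donor Tconv libraries had a peak there, and neither iTreg library did. The direction therefore differed along this gene.

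Genes of the sort markers were led by tTreg-only regions at Il2ra and Ctla4 but not at Nrp1. Ctla4, an inhibitory receptor, held the widest tTreg-only region of all, chr1:60910363-60914093 in the gene body, with 3126 and 3731 bp in tTregs. It had a peak in 5 of 6 other Treg libraries and in no donor Tconv library. Il2ra, the alpha chain of the IL-2 receptor, had 4 tTreg-only and 1 Tconv-only of 12 regions. None of those 4 had a peak in a donor Tconv library, and all 4 had one in both donor Treg libraries. Nrp1 had 1 tTreg-only and 2 Tconv-only of 26 regions, and 6 tTreg-only and 2 Tconv-only at equal list length.

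Other Treg core genes also leaned to tTregs. Lrrc32 encodes GARP, which holds latent TGF-beta at the Treg surface. It had 2 tTreg-only and no Tconv-only of 6 regions, and its peaks covered 3327 and 6082 bp in tTregs, against 504 and 1012 bp in Tconv. Cd83, a surface protein of activated lymphocytes, had 4 tTreg-only and 1 Tconv-only of 12 regions, and Icos, a costimulatory receptor, had 3 tTreg-only and 1 Tconv-only of 18. Itgae, the CD103 integrin chain, had 1 tTreg-only and 0 Tconv-only of 9. In the opposite direction, Il2rb, the IL-2 receptor beta chain, had 0 tTreg-only and 2 Tconv-only of 7.

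The effector and tissue Treg genes had the highest tTreg-only share among lists with more than 50 regions. This list of 20 genes had 35 tTreg-only (19.2%) and 10 Tconv-only (5.49%) of 182 regions, and 49 tTreg-only and 5 Tconv-only of 146 at equal list length. Of its genes 13 leaned to tTregs and 3 to Tconv. The net of 25 was 60 without tTreg 1 and 17 without Tconv 1, by the looser rule with 1 library left out. Klrg1, a receptor of short-lived effector and effector Treg cells, had 3 tTreg-only and no Tconv-only of 10 regions and covered 3676 and 5879 bp in tTregs, against 325 and 1415 bp in Tconv. Il1rl1, the IL-33 receptor ST2, had 4 tTreg-only and 1 Tconv-only of 11 regions and covered 2642 and 3822 bp in tTregs, against 464 and 965 bp in Tconv. Areg, the tissue repair factor amphiregulin, had 2 tTreg-only and 0 Tconv-only of 3 regions and covered 1267 and 1550 bp in tTregs, against 0 and 150 bp in Tconv. Every tTreg value at these 3 genes lay above both Tconv values. They were named for their net of tTreg-only regions, which add length only in tTregs, so this follows in part from the choice. The share of all genes with such values is not given. Tnfrsf8 (CD30) had 4 tTreg-only and 0 Tconv-only of 17 regions, and Samsn1, an adaptor protein gene, had 3 tTreg-only and 1 Tconv-only of 12. The histone deacetylase gene Hdac9 had 4 tTreg-only and 0 Tconv-only of 10. All 4 of these Hdac9 regions were also found in at least 1 donor Tconv library. The same held for 1 of the 4 at Tnfrsf8 and 1 of the 3 at Samsn1. Of the 4 at Hdac9, the host pTreg libraries shared 2 and the donor Treg libraries shared all 4. Il10, encoding an inhibitory cytokine, had no tTreg-only and 1 Tconv-only of 10 regions, but 2 tTreg-only and no Tconv-only at equal list length. It lies within 20 Mb of Ptprc. Gzmb, encoding granzyme B, had 0 tTreg-only and 1 Tconv-only of 7, and no differing region at equal list length.

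**Figure D3:**
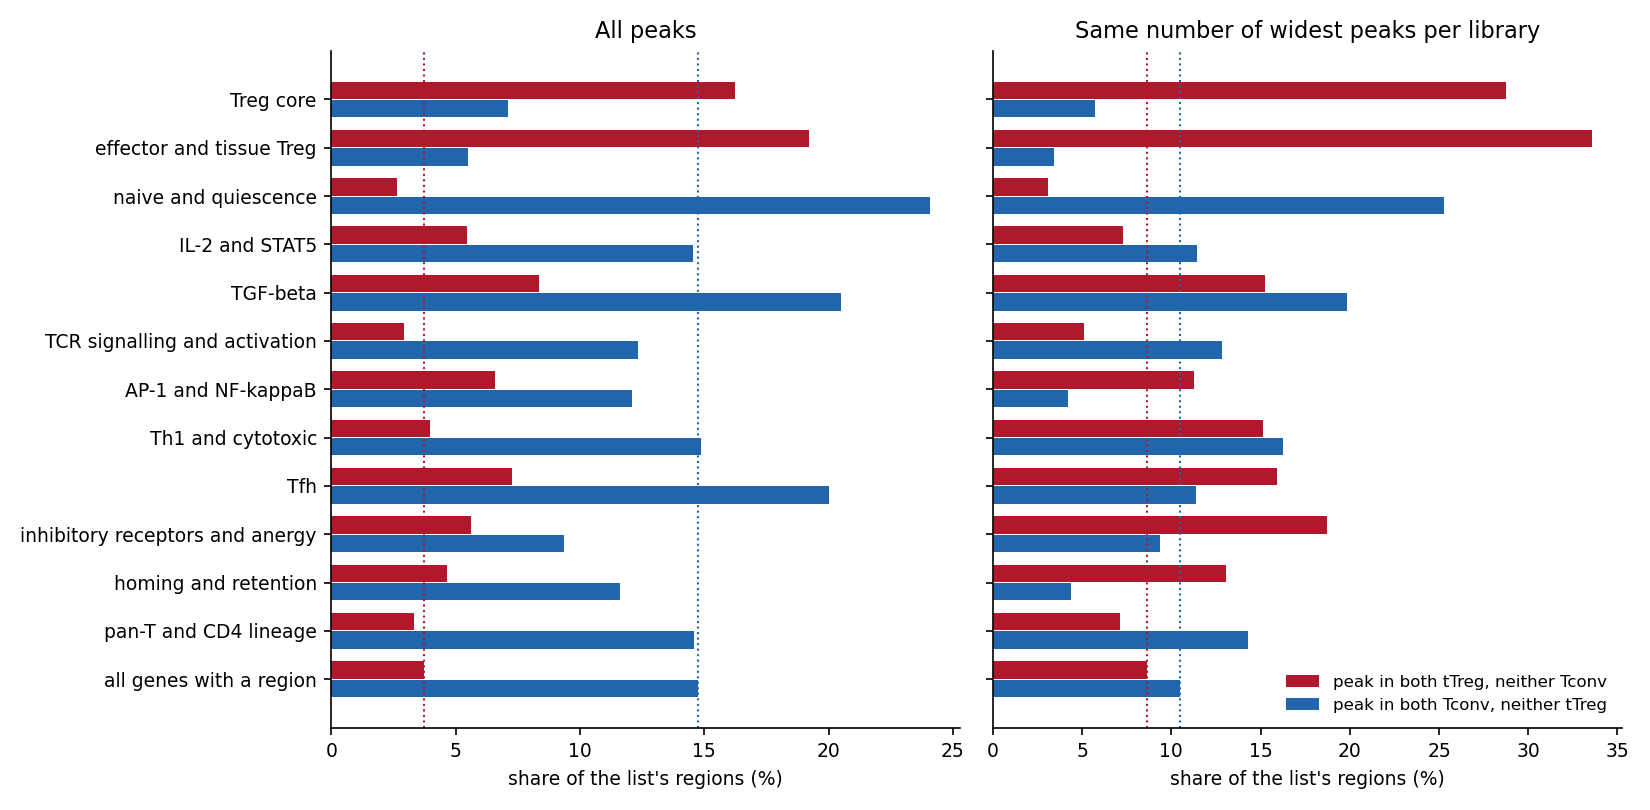
Share in % (horizontal axis) of the regions of each gene list that were tTreg-only (red) or Tconv-only (blue), for lists with 50 or more regions, with all peaks (left) and with 28394 peaks for each library (right). Dotted lines give the shares over all genes with a region, 3.72% and 14.7% on the left; Treg core and effector and tissue Treg stand at 16.2% and 19.2% tTreg-only, and naive and quiescence at 24.1% Tconv-only.

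Genes of naive and quiescent T cells leaned to Tconv, with 15 of 18 genes in that direction and none in the other. This list had 8 tTreg-only (2.64%) and 73 Tconv-only (24.1%) of 303 regions, and 8 tTreg-only and 65 Tconv-only of 257 at equal list length. Satb1, a chromatin organiser, had no tTreg-only and 10 Tconv-only of 17 regions with all peaks and at equal list length. Its peaks covered 2866 and 4741 bp in tTregs, against 16210 and 27064 bp in Tconv. Lef1, a TCF family factor, had 0 tTreg-only and 7 Tconv-only of 17 regions and covered 4235 and 6260 bp in tTregs, against 14827 and 29467 bp in Tconv. At both genes each Tconv library covered more than either tTreg library, but Tconv lists also covered more in total. Per Mb of peaks in each list, Satb1 covered 170 and 203 bp in tTregs, against 692 and 821 bp in Tconv. Lef1 covered 251 and 268 bp per Mb in tTregs, against 633 and 894 bp in Tconv. The share of all genes with such a gap is not given here. All 10 Satb1 and all 7 Lef1 regions had a peak in both donor Tconv libraries. Treg libraries also held some of them: 6 of the 10 Satb1 and 3 of the 7 Lef1 regions had a peak in a donor Treg library, and 8 of the 10 and 4 of the 7 in both iTreg libraries. All 6 other Treg libraries had a peak at chr17:51762271-51764009, chr17:51855003-51855813 and chr17:51876197-51877022 in Satb1 and at chr3:131199383-131200839 and chr3:131214301-131216178 in Lef1. Bach2, a repressor of effector genes, had 3 tTreg-only and 11 Tconv-only of 42 regions and covered 15711 and 23704 bp in tTregs, against 28566 and 49841 bp in Tconv. Dapl1, which marks naive T cells, had 0 tTreg-only and 4 Tconv-only of 13 regions. Ets1, an ETS factor, had 2 tTreg-only and 4 Tconv-only of 26, and Foxo1, which holds T cells quiescent, had 0 tTreg-only and 2 Tconv-only of 19. Tcf7 had 1 Tconv-only region and Il7r, the IL-7 receptor gene, had none differing of 3. Ccr7, the lymph node homing receptor gene, had 1 tTreg-only and 1 Tconv-only of 11.

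Foxp1 had the highest net of Tconv-only regions of any gene, 2 tTreg-only and 23 Tconv-only of 69, and 1 tTreg-only and 16 Tconv-only at equal list length. Its peaks covered 12353 and 21147 bp in tTregs, against 33063 and 52091 bp in Tconv. Of the 23 Tconv-only regions, 22 had a peak in both donor Tconv libraries, 4 in any donor Treg library and 5 in any host pTreg library. Both directions met listed starts of this gene, whose windows are printed above. The inner start, at chr6:99028298, lay in a region that measured 913 and 1080 bp in tTregs and had no peak in Tconv. Both donor Treg, both iTreg and 1 of 2 host pTreg libraries had a peak in that region, and no donor Tconv library did. The outer start, at chr6:99266515, lay in a region of 938 and 1502 bp in Tconv with no peak in tTregs. Both donor Tconv and both iTreg libraries had a peak there, and no donor Treg or host pTreg library did. Both of these starts lie inside the gene. At its 5' end, chr6:99521050-99523608 measured 718 and 1667 bp in tTregs, against 2280 and 2559 bp in Tconv. All 6 other Treg libraries and both donor Tconv libraries also had a peak there. Peaks thus differed at the 2 internal starts between the host groups and, likewise, between the donor groups, but not in presence at the 5' end.

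Tgfbr3, which encodes the TGF-beta co-receptor betaglycan, had no tTreg-only and 15 Tconv-only of 24 regions, and no tTreg-only and 14 Tconv-only at equal list length. It covered 787 and 1189 bp in tTregs, against 12311 and 18279 bp in Tconv. Of the 15 Tconv-only regions, 14 had a peak in both donor Tconv and 13 in both iTreg libraries. A donor Treg library had a peak at 5 of the 15, and a host pTreg library at 5. Khdrbs3, encoding an RNA-binding protein, had no peak in tTregs, against 3974 and 6930 bp in Tconv. Its 11 Tconv-only regions all had a peak in both donor Tconv libraries and none had one in host pTregs. Of these 11, 5 had a peak in both iTreg libraries and 1 in a donor Treg library. Maml2, a Notch coactivator, had 0 tTreg-only and 12 Tconv-only of 39 regions, and covered 4987 and 6005 bp in tTregs, against 12490 and 21068 bp in Tconv. At these 3 genes the groups did not overlap, also when taken per Mb of peaks in each list. With no tTreg-only region, Cox10, for haem A synthesis, had 13 Tconv-only regions (8 at equal list length), the zinc finger gene Zfp704 had 12 (6) and Mbnl2, a splicing factor, had 11 (4). Thada had 11 Tconv-only regions and Rapgef4, encoding the cAMP sensor Epac2, had 10, and each had 3 at equal list length. Prkce, a protein kinase C, had 0 tTreg-only and 12 Tconv-only regions with all peaks but 2 tTreg-only and 5 Tconv-only at equal list length. Cacna1d, a calcium channel, had 0 tTreg-only and 11 Tconv-only regions, and 3 tTreg-only and 9 Tconv-only at equal list length. Its net turned to 1 tTreg-only region when regions went to the nearest gene end.

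Most signalling and helper lists had more Tconv-only than tTreg-only regions with all peaks, as did all assigned regions (14.7% against 3.72%). Several changed direction at equal list length, where the shares over all assigned regions were 8.65% tTreg-only and 10.5% Tconv-only. The TGF-beta list had 13 tTreg-only (8.33%) and 32 Tconv-only (20.5%) of 156 regions, and 15 of the 32 belonged to Tgfbr3. It had, at equal list length, 20 tTreg-only (15.3%) and 26 Tconv-only (19.8%) of 131, so both shares lay above those over all genes. Smad3, a signal transducer of the pathway, had 1 tTreg-only and 3 Tconv-only of 16 regions, Smad4, the common partner, 0 tTreg-only and 2 Tconv-only of 8, and the ubiquitin ligase gene Smurf2 0 tTreg-only and 3 Tconv-only of 6. On the same list Tgif1, a corepressor of SMADs, had 2 tTreg-only and 0 Tconv-only of 6, beside Itgb8 and Lrrc32. The IL-2 and STAT5 list had 6 tTreg-only (5.45%) and 16 Tconv-only (14.5%) of 110, near the shares over all assigned regions. On it Bcl2, a survival gene, had 1 tTreg-only and 5 Tconv-only of 34. Jak1, a receptor kinase, had 1 tTreg-only and 4 Tconv-only of 22. The T cell receptor signalling list had 4 tTreg-only (2.90%) and 17 Tconv-only (12.3%) of 138, both below the shares over all assigned regions. Cd5, a negative regulator, and Plcg1, a phospholipase, were each at 0 tTreg-only and 3 Tconv-only of 9. The Th1 and cytotoxic list had 4 tTreg-only (3.96%) and 15 Tconv-only (14.9%) of 101, near the shares over all assigned regions. At equal list length it had 13 tTreg-only and 14 Tconv-only of 86. On it Il12rb2, the IL-12 receptor beta 2 chain, had 0 tTreg-only and 5 Tconv-only of 6 regions, and 6 Tconv-only at equal list length. It covered 0 and 380 bp in tTregs, against 2860 and 4809 bp in Tconv, and all 5 were present in both donor Tconv libraries. Treg libraries held them as well, all 5 in both iTreg libraries, 3 in a host pTreg library and 2 in a donor Treg library. Regions of the Th17 list stood at 5 tTreg-only and 4 Tconv-only of 27, with Ccr6, a chemokine receptor, at 3 tTreg-only and 1 Tconv-only of 6 and Ahr, an environmental sensor, at 2 tTreg-only and 0 Tconv-only of 7. Il23r, the IL-23 receptor, was at 0 tTreg-only and 2 Tconv-only of 6. The Tfh list had 4 tTreg-only and 11 Tconv-only of 55, and Il21, the Tfh cytokine, gave 5 of the Tconv-only ones. At equal list length the list had 7 tTreg-only and 5 Tconv-only regions, and Il21 had 1 Tconv-only. Inhibitory receptors and anergy genes had 6 tTreg-only and 10 Tconv-only of 107 with all peaks and 18 tTreg-only and 9 Tconv-only of 96 at equal list length. The AP-1 and NF-kappaB list had 6 tTreg-only and 11 Tconv-only of 91, and 8 tTreg-only and 3 Tconv-only of 71 at equal list length. The homing list had 4 tTreg-only and 10 Tconv-only of 86, and 9 tTreg-only and 3 Tconv-only of 69 at equal list length. The Th2 list had 0 tTreg-only and 3 Tconv-only of 27.

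Gene lists of other cell types held peaks in both groups, with none at some of their genes. Their counts stand beside Tconv peak lists that were longer throughout. The pan-T and CD4 list had 92 and 112 peaks in tTregs, against 116 and 129 in Tconv, as both sorts require CD3 and CD4. On it, 5 regions (3.31%) were tTreg-only and 22 (14.6%) Tconv-only of 151, beside 3.72% and 14.7% of all assigned regions. Trat1, a T cell receptor adaptor, was at 0 tTreg-only and 7 Tconv-only of 15. Runx1 was at 1 tTreg-only and 6 Tconv-only of 30 and Cd28 at 0 tTreg-only and 4 Tconv-only of 14. The innate-like T list had 9 and 12 peaks in tTregs, against 22 and 25 in Tconv. Zbtb16, the gene of PLZF, a factor of innate-like T cells, had 0 tTreg-only and 10 Tconv-only of 13 regions with all peaks, and no differing region at equal list length. It covered 252 and 328 bp in tTregs, against 2622 and 3857 bp in Tconv. The CD8 list of 6 genes had 16 and 25 peaks in tTregs, against 26 and 32 in Tconv. Cd8a covered 0 and 0 bp in tTregs, against 395 and 509 bp in Tconv, and Cd8b1 covered 0 and 348 bp in tTregs, against 1259 and 1659 bp in Tconv. The NK list had 11 and 14 peaks in tTregs, against 20 and 23 in Tconv, and Ncr1 and Klra4 had none in any of the 4 libraries. The B cell list had 12 and 17 peaks in tTregs, against 6 and 12 in Tconv, and Cd79a, Cd79b and Fcer2a had none. The myeloid list had 18 and 22 peaks in tTregs, against 24 and 30 in Tconv, with Csf1r, Lyz2, Elane, S100a8 and Cd68 at none. The erythroid list had 8 and 9 peaks in tTregs, against 7 and 8 in Tconv. The plasma cell list had 16 and 24 peaks in tTregs, against 18 and 23 in Tconv, and the stem and progenitor list had 13 and 22 in tTregs, against 18 and 23 in Tconv. At equal list length the CD8 list had 3 tTreg-only and 3 Tconv-only regions, the NK list 0 tTreg-only and 4 Tconv-only, the B cell list 4 tTreg-only and 0 Tconv-only and the myeloid list 1 tTreg-only and 4 Tconv-only. The part of other cells in the results was not tested.

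After Ctla4, the next widest tTreg-only region lay in Ets1 (chr9:32743474-32746265), with 2014 and 2776 bp in tTregs. Both host pTreg and both iTreg libraries had a peak there, and no donor Treg or donor Tconv library did. The Izumo1r promoter region (chr9:14902946-14905275) measured 1453 and 2330 bp in tTregs and had a peak in 5 of 6 other Treg libraries and 1 of 2 donor Tconv libraries. Traf1, an adaptor of TNF receptors, had 1228 and 1435 bp in tTregs, with a peak in all 6 other Treg libraries and in no donor Tconv library. The others, at Trpm2, Dot1l, Prrc2b, Hvcn1, Foxp3 and chr10:117909165-117910904, had a peak in at least 1 donor Tconv library. The widest Tconv-only regions lay at Sfi1, Abcb9, Pde3b, Gnas, Pde5a, Galnt2, Dnajb12, Tspan9, Wdtc1 and Cd3d. The Sfi1 locus holds repeated sequence where short reads map with uncertainty. The Sfi1 region (chr11:3140427-3148919) measured 8493 and 8465 bp in Tconv and was in both donor Tconv and none of the 6 other Treg libraries. The Cd3d promoter region (chr9:44980934-44982941) measured 1658 and 2008 bp in Tconv and was in 1 of 2 donor Tconv and none of the 6 other Treg libraries, although Cd3d encodes a CD3 chain required in both sorts. A wide peak could be missing from 1 of 2 replicates: 49 regions reached 1000 bp in 1 tTreg library and were absent in the other, while 12 tTreg-only regions reached 1000 bp in both. In Tconv, 87 regions reached 1000 bp in 1 library and were absent in the other, while 60 Tconv-only regions reached it in both.

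The differing regions followed the same division in 6 of the 8 libraries that did not define them. Of the 1998 tTreg-only regions, 71.4% and 77.9% had a peak in the donor Treg libraries, 91.4% and 84.7% in the host pTreg libraries, while donor Tconv had one at 33.3% and 27.7%. Of the 7710 Tconv-only regions, 17.8% and 24.3% had one in donor Tregs, 28.8% and 11.9% in host pTregs and 95.0% and 91.4% in donor Tconv. Host pTregs were gated as Nrp1- and share the DR31 code with tTregs, whereas the 4 donor libraries share BW13 with the host Tconv. Over all 51067 regions the shares were 61.0% and 64.6% in donor Tregs, 69.9% and 61.2% in host pTregs, and 84.9% and 81.3% in donor Tconv. The in vitro iTregs did not follow the division. They had a peak at 49.5% and 53.1% of tTreg-only and at 72.6% and 76.4% of Tconv-only regions, beside 79.5% and 81.8% of all regions. The iTregs at equal list length had a peak at 29.5% and 30.0% of tTreg-only and at 44.7% and 46.2% of Tconv-only regions. All 6 other Treg libraries had a peak at 598 of the tTreg-only regions, and at 275 of those no donor Tconv library had one. Both donor Tconv libraries and no other Treg library had a peak at 955 Tconv-only regions (12.4%). In all, 24 tTreg-only and 113 Tconv-only regions had a peak in none of the other 8 libraries.

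**Figure D4:**
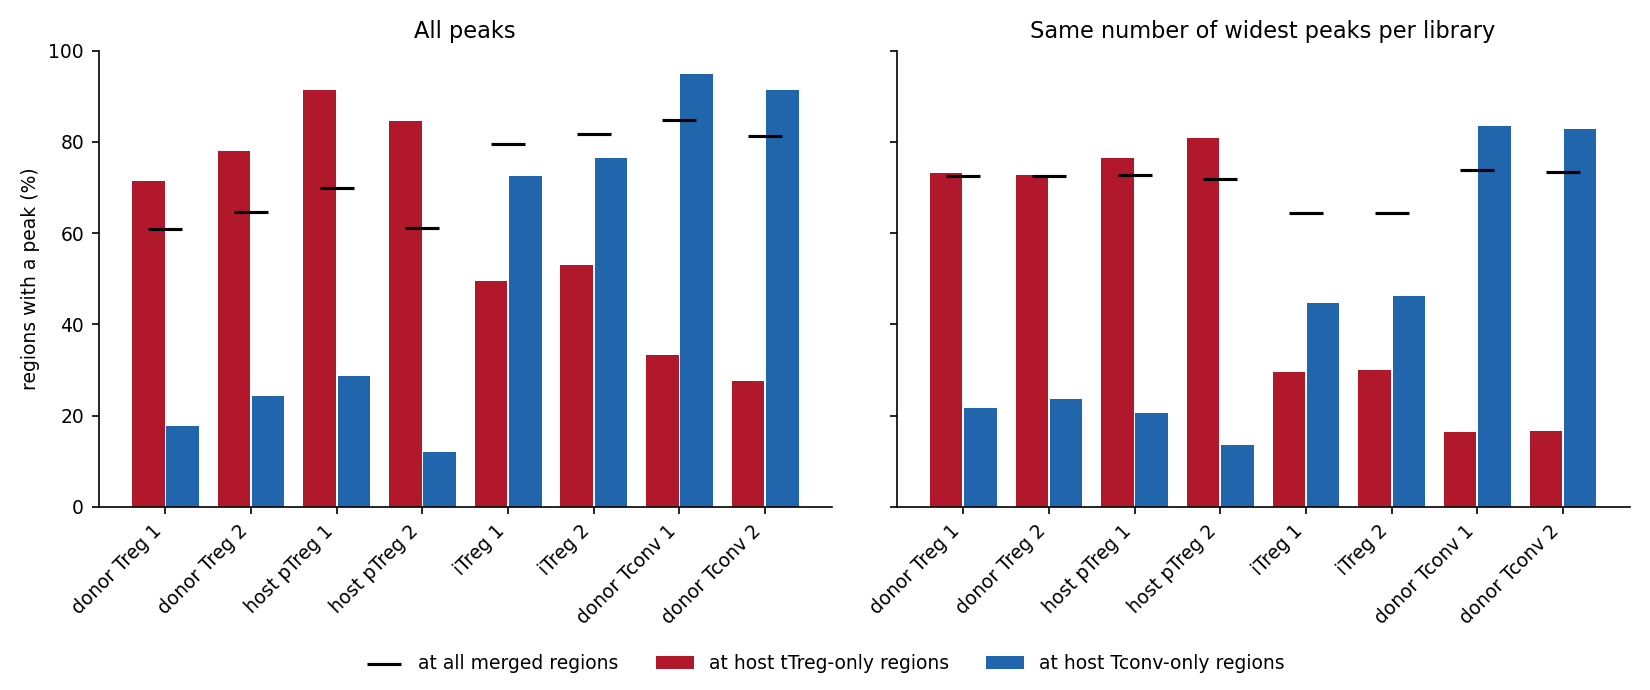
Share in % (vertical axis) of host tTreg-only regions (red) and host Tconv-only regions (blue) with a peak in each of the other 8 libraries (horizontal axis), with all peaks (left) and 28394 peaks for each library (right). Black marks give the share of all merged regions; donor Treg and host pTreg libraries have more peaks at the red set, and donor Tconv and iTreg libraries at the blue set.

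Donor Tregs and donor Tconv, which share 1 run code and no library with the host comparison, were set against each other by the same rule. Donor Tregs were sorted as CD25+LAP+ and donor Tconv as CD25- cells from the transferred 6.5TCR population. Of the 1998 host tTreg-only regions, 710 (35.5%) had a peak in both donor Treg and neither donor Tconv library, beside 2.23% of all regions, and 32 (1.60%) had the reverse. Those 710 were 62.3% of the 1140 donor-Treg-only regions among the 51067, which leave out donor peaks with no host tTreg or host Tconv peak. Of the 7710 host Tconv-only regions, 4751 (61.6%) were donor-Tconv-only, beside 17.7% of all regions, and 3 were donor-Treg-only. Those 4751 were 52.6% of the 9039 donor-Tconv-only regions among the 51067. At equal list length, 1563 of 3423 tTreg-only regions (45.7%) were donor-Treg-only and 20 were donor-Tconv-only. Of the 4011 Tconv-only regions, 2053 (51.2%) were donor-Tconv-only and 23 were donor-Treg-only.

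Among regions with a peak in all 4 libraries, peak width gave a second measure. Presence with all peaks did not use it, but the classes at equal list length did, since they rest on the widest peaks. Covered lengths were compared on the log2 scale after quantile normalization with limma, a test chosen after the files had been seen. Of 23162 regions, 751 (3.24%) were wider and 882 (3.81%) narrower in tTregs at an adjusted p under 0.05. The median log2 difference was 0.04. Without normalization, which leaves a median of -0.29, 19 regions were wider and 279 narrower. With same-numbered libraries taken as a block, 0 were wider and 0 narrower, though the labels tie no numbers to shared animals. Without tTreg 2, 411 were wider and 933 narrower, and without Tconv 1, 832 were wider and 1415 narrower. Raw widths did not overlap between groups, in the direction of the call, at 638 of the wider and 882 of the narrower regions. Uncalled regions often showed the same: of 21529, tTreg widths lay above Tconv widths at 326 and below them at 10096, so non-overlap toward Tconv is common here. Raw median widths were 563 and 727 bp in tTregs, against 708 and 927 bp in Tconv. The narrowest peak of every list measured 150 bp, so this width is a floor. Where a library stands at it, as at Sh3rf1, Satb1 and Klf2 below, the size of the difference is uncertain. Without regions that had a library at this width, 682 were wider and 841 narrower.

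At Treg core genes, 19 of 85 shared regions were wider in tTregs and none narrower by limma, with a median log2 difference of 0.53 over the 85. Of the 19, 6 lay at Nrp1 and 3 at Ctla4, both sort markers. The shared region near Lrrc32, chr7:98488431-98490728, measured 1723 and 2298 bp in tTregs, against 315 and 674 bp in Tconv. Both tTreg values lay above both Tconv values, and the log2 difference was 2.45 ± 0.22 (SE, limma adjusted p = 0.00115, 5.47-fold). Ikzf2 had 4 of 5 shared regions wider. The largest difference there was at chr1:69679562-69681608, with 1227 and 2047 bp in tTregs, against 310 and 813 bp in Tconv (log2 difference 1.98 ± 0.29, limma adjusted p = 0.0062). Nrp1 had 6 of 11 wider, although it leaned to Tconv by presence with all peaks, and Ctla4 had 3 of 6. None of the 5 shared Il2ra regions and none of the 4 at Itgae was called. Tigit, an inhibitory receptor gene, had 2 wider regions, and its promoter region at chr16:43663822-43665241 measured 1335 and 1412 bp in tTregs, against 852 and 954 bp in Tconv.

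Effector and tissue Treg genes had 16 wider and 1 narrower of 67 shared regions, with a median of 0.41. The narrower one was at Gzmb. Il10, near Ptprc, had 4 of 5 wider, with 397 and 1325 bp in tTregs, against 197 and 188 bp in Tconv at chr1:131020604-131021928 (log2 difference 2.17 ± 0.39, limma adjusted p = 0.0127). The Itgb8 promoter region, chr12:119237706-119239039, measured 1315 and 1322 bp in tTregs, against 244 and 698 bp in Tconv (log2 difference 1.98 ± 0.30, limma adjusted p = 0.0065). At both, each tTreg library was wider than each Tconv library. Outside the lists, the promoter region of Il1r2, a decoy receptor for IL-1, measured 988 and 2058 bp in tTregs, against 272 and 461 bp in Tconv (log2 difference 2.35 ± 0.26, limma adjusted p = 0.00215). The largest widening of all, at Sh3rf1, a ubiquitin ligase gene, was 3.07 ± 0.22 (limma adjusted p = 0.00055). It measured 1331 and 1455 bp in tTregs, against 150 (the floor) and 277 bp in Tconv.

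Peaks at naive and quiescence genes were mostly narrower in tTregs where called, with 4 wider and 30 narrower of 121 shared regions and a median of -0.28. Tcf7, with 1 Tconv-only region by presence, had 3 of 5 narrower. Its region at chr11:52270303-52284692 measured 1119 and 2897 bp in tTregs, against 12436 and 14390 bp in Tconv (log2 difference -2.30 ± 0.36, limma adjusted p = 0.0075). All 3 shared Satb1 regions were narrower, among them chr17:51878831-51881199, with 150 and 463 bp in tTregs, against 1877 and 2369 bp in Tconv (log2 difference -2.64 ± 0.32, limma adjusted p = 0.0032). Each Tconv library was wider than each tTreg library at both. Foxp1 had 6 of 22 narrower and none wider, and Ccr7 had 3 of 6 narrower. Bach2 went both ways, with 6 narrower and 2 wider of 17. Klf2, a quiescence factor, was narrower at chr8:72303311-72304034, with 150 and 150 bp in tTregs, against 476 and 724 bp in Tconv. Neither Il7r region was called.

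**Figure D5:**
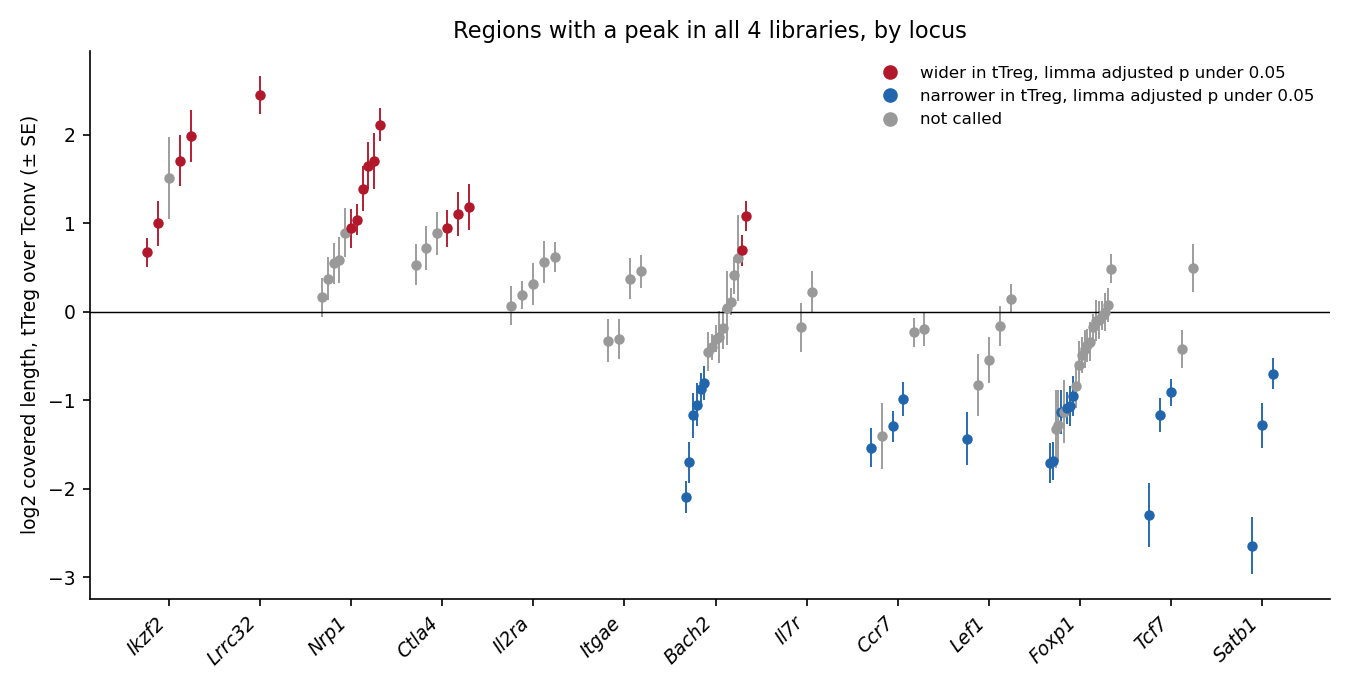
Log2 difference in covered length, host tTreg over host Tconv, with its SE (vertical axis), for each region with a peak in all 4 libraries at 13 loci (horizontal axis). Red and blue points were wider and narrower in tTregs by limma; at Ikzf2 4 of 5 and at Nrp1 6 of 11 are red, and at Satb1 3 of 3 and at Tcf7 3 of 5 are blue.

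The largest narrowings in tTregs included Tgfbr3 and Il4ra. Il4ra, the IL-4 receptor alpha chain, measured 932 and 1145 bp in tTregs, against 6545 and 8674 bp in Tconv at chr7:125551246-125559983 (log2 difference -2.45 ± 0.18, limma adjusted p = 0.00055). Tgfbr3 measured 188 and 265 bp in tTregs, against 2057 and 2216 bp in Tconv at chr5:107078334-107080549 (log2 difference -2.95 ± 0.19, limma adjusted p = 0.00038). Tgfbr2, the ligand-binding TGF-beta receptor, measured 187 and 355 bp in tTregs, against 1355 and 1682 bp in Tconv at chr9:116091021-116092702. The groups did not overlap at any of these 3. On the pan-T and CD4 list 1 region was wider and 9 were narrower of 79, with a median of -0.33. Its narrower regions included Zbtb7b, the CD4 lineage factor ThPOK, with 351 and 362 bp in tTregs, against 1210 and 1620 bp in Tconv. Cd4 measured 649 and 1025 bp in tTregs, against 1799 and 1971 bp in Tconv. Over 652 genes with a nonzero net in both measures, presence and width leaned to tTregs together at 124 and to Tconv together at 364, while presence leaned to tTregs and width to Tconv at 36, and the reverse held at 128.

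Most regions that differed by presence lay away from gene starts. Within 1 kb of a listed start lay 4.85% of tTreg-only and 3.61% of Tconv-only regions, beside 17.9% of all regions and 34.1% of those found in all 4 libraries. No start is listed on chromosome 18 or for some genes, such as Ikzf2 and Ccr7, so regions at those starts are not counted as near. Among shared regions, 9.45% of those wider in tTregs and 19.3% of those narrower lay there, beside 35.5% of those not called. Median widths were 333.5 bp for tTreg-only and 334 bp for Tconv-only regions, beside 387.5 bp over all. Of all promoter windows, 80 met a tTreg-only region and 232 a Tconv-only region. AP-1 letters stood in 16.2% of those 80 and 7.76% of those 232 windows. They stood in 6.99% of all windows and 3.83% of windows with a region in all 4 libraries. CRE letters stood in 16.2% of the tTreg-only and 3.45% of the Tconv-only windows, beside 8.49% of all. Windows with a region in all 4 libraries held CRE in 13.3%, near the tTreg-only share. Of other motifs counted, forkhead stood in 7.5% of tTreg-only and 1.72% of Tconv-only windows, beside 3.01% of all. ETS stood in 3.75% and 1.72%, beside 8.39% of all. Around Ptprc, within 20 Mb, 61 of 876 regions (6.96%) were tTreg-only and 122 (13.9%) were Tconv-only, and away from it 3.86% of regions were tTreg-only and 15.1% Tconv-only. On the rest of chromosome 1, 4.84% were tTreg-only and 13.9% Tconv-only. At equal list length the tTreg-only share was 13.7% around Ptprc, 10.6% on the rest of chromosome 1 and 9.11% over all other regions. The part of CD45 type in the regions around Ptprc was not tested.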

How the data were processed

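ATAC-seq peak lists of 4 libraries were analysed, 2 of host tTregs and 2 of host Tconv, and the peak lists of the other 8 libraries of the series were used only to look up the differing regions. The deposited files hold 5 columns with a chromosome, start and end for each peak on mm10 and a score that is 1000 in every row of each list, so the score was not used. Bowtie2 2.3.3, HOMER 4.10 and bedtools are named per the submitters' processing notes; their roles, order and thresholds are not given in the sources used. The file names speak of an intersection that is not explained. Such a step can drop a peak as a whole, and a peak dropped there cannot be told apart from one never found. No counts or signal were used, so depth is unknown.

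Peaks sharing at least 1 bp were merged. The comparison was repeated with as many of the widest peaks of each list as the shortest list holds, 28394. Genes and starts came from RefSeq, GRCm38.p6, with 21887 protein-coding genes and 17492 genes with a listed start. All 262 genes of the 22 lists were found. The 12 genes with the largest net in each direction and the same sign at equal list length were named, together with marker loci, list members with a net of 2 or more and the 10 widest differing regions in each direction; Il10 and Gzmb, and genes named for width, were chosen after their values were seen. The members and lists were chosen with earlier results of these data known. Widths of regions with a peak in all 4 libraries were tested with limma 3.58.1 in R 4.3.3 (log2 covered bp, quantile normalization, mean-variance trend, Benjamini-Hochberg adjustment). The fit was also run on widths simulated from the means and spread of these data, with an outcome not given here. This test was added after the design was set. Python 3.11.15, pandas 2.3.3 and scipy 1.17.1 did the rest. Alternatives for regions were a 100 bp overlap, peaks of 300 bp or more, regions merged over all 12 libraries, nearest gene ends and autosomes. For widths they were other normalizations, a replicate block and dropping regions with a library at the smallest width. Each library was also left out in turn.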

Additional observations from a re-analysis of the deposited data

How the results depend on the processing

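With equal list length, 3423 regions were tTreg-only and 4011 Tconv-only, so the tTreg share of differing regions was 46.0%; with peaks of 300 bp or more it was 16.9%, with 1112 tTreg-only regions. Leaving out 1 library gave 2141 to 5379 tTreg-only regions, 8083 to 14483 Tconv-only regions and a tTreg share of 12.9% to 40.0%. Its group was then judged by the remaining library alone, a looser rule by which counts can rise. The gap between donor Treg and donor Tconv libraries at tTreg-only regions was 44.1 percentage points, and 56.5 at equal list length. Lists with a net of tTreg-only regions numbered 4 with all peaks and 10 both at equal list length and without tTreg 1.

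Several lists turned round, and not only those near a net of 0. With all peaks, Tfh had 4 tTreg-only and 11 Tconv-only regions, and homing had 4 tTreg-only and 10 Tconv-only. At equal list length the net was 5 for AP-1 and NF-kappaB, 2 for Tfh, 9 for inhibitory receptors, 6 for homing and 1 for plasma genes. Without tTreg 1 it was 5 for AP-1 and NF-kappaB, 2 for Th2, 3 for inhibitory receptors, 4 for plasma and 1 for stem and progenitor genes. Th17 had -1 without tTreg 2 and -3 without Tconv 1, and inhibitory receptors had 2 without Tconv 2 and 1 with nearest gene ends. Inpp4b had -2 with peaks of 300 bp or more and Cacna1d had 1 with nearest gene ends. Of 198 recomputed list values 14 were reversed, and of 216 for the named genes 2 were. Leaving out 1 library gave nets as low as -12 for AP-1 and NF-kappaB, -7 for inhibitory receptors and -6 for stem and progenitor genes, and -5 for Th2 and for plasma genes. The cause was not tested.

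Wider and narrower regions by limma numbered 387 and 565 with cyclic loess, 19 and 279 with no normalization, and 386 wider ones at equal list length. Leaving out 1 library gave 411 to 1098 wider and 624 to 1415 narrower regions. With the replicate block they numbered 0 and 0 (limma, adjusted), although 5138 regions had an unadjusted p under 0.05, beside 4851 without the block. The deviations of same-numbered libraries had a correlation of 0.125 over 2 pairs, the Tconv numbers differ between titles (rep1, rep2, used here) and descriptions (R2, R3), and the labels tie no numbers to shared animals, so the libraries share only a number. Of 621 recomputed values of the named width regions 141 lost the call and none reversed.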
